A study of Mus musculus with 12 samples.

Results

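Fgf21 and Gdf15 encode the secreted proteins FGF21 and GDF15, which are called mitokines because cells with disturbed mitochondria release them. The members were all probe sets (groups of short probes read as one signal) annotated with either gene symbol. This gave 1 probe set for Fgf21 and 0 for Gdf15, of 45037 probe sets on the array after control probe sets were removed. Gdf15 was therefore not analysed here, and what follows concerns Fgf21 and the genes known to act before and after FGF21 and GDF15.

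FGF21 is a hormone of the fibroblast growth factor family that is best known from the liver, where fasting raises it. It signals through FGF receptors, chiefly FGFR1, joined to the co-receptor β-klotho, and its gene is a known target of ATF4, the transcription factor of the integrated stress response, and of PPARα. Striated muscle and heart are known to make FGF21 when mitochondrial function is impaired. GDF15 belongs to the TGF-β superfamily and signals through GFRAL, a receptor of the hindbrain, together with RET.

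RNA of whole, excised hearts (500 ng from each) was hybridised to Affymetrix arrays. All mice were of the outbred CD1 stock. DN-MCU mice carried a dominant-negative construct of the mitochondrial calcium uniporter MCU, whose channel lets calcium into mitochondria, and WT mice were littermates. The groups were DN-MCU adult, WT adult, DN-MCU neonate and WT neonate, with 3 arrays each. Adults were 42 d old and labelled male, and neonates were 1 d old with no sex given. The labels do not state which promoter drives the construct. All values are log2 signals.

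As a check of the labels, 1 of the 2 Mcu probe sets read 8.85, 9.64 and 10.41 in DN-MCU adults, against 4.55, 2.45 and 3.06 in WT adults. In DN-MCU neonates it read 8.73, 8.44 and 9.28, against 2.90, 3.31 and 3.24 in WT neonates, so every DN-MCU array lay above every WT array. The other Mcu probe set did not separate the genotypes: it read 7.39, 7.54 and 8.14 in DN-MCU adults, against 7.84, 7.72 and 7.41 in WT adults, and lay between 7.70 and 8.18 in neonates. A pair of adult arrays stood apart from the rest of their groups. On the second principal component DN-MCU adult 3 lay at 121.4 and WT adult 1 at 24.4, while the other 4 adults lay between -50.9 and -21.5. The mean signal of the 64 control probe sets was also highest in DN-MCU adult 3, at 9.82 against 8.45 to 8.84 elsewhere. DN-MCU adult 1 stood apart in thymocyte markers, with a summed signal of 10.83, against 5.33 to 5.59 in the other DN-MCU adults and 5.28 to 6.15 in WT adults. Cardiomyocyte markers were bright on all arrays: the summed signal of 8 markers, among them Myh6 and Tnnt2, was 18.27 to 18.36 in DN-MCU adults and 18.31 to 18.45 in WT adults, and 17.95 to 18.05 in DN-MCU neonates and 18.01 to 18.05 in WT neonates. The hearts are bulk tissue, in which fewer cells of a type and less RNA per cell cannot be told apart.

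Fgf21 was high in adult DN-MCU hearts, near background in WT hearts of both ages, and uneven among DN-MCU neonates. Its signal was 7.84, 7.81 and 8.55 in the 3 DN-MCU adults, against 1.85, 1.93 and 1.81 in the 3 WT adults. The groups were far apart, and the DN-MCU arrays differed from each other by much less than from any WT array. The means were 8.07 ± 0.42 in DN-MCU adults and 1.86 ± 0.06 in WT adults (SD, n = 3 each). The log2 difference was 6.21 (standard error, SE, 0.54; 95% interval 5.01 to 7.41; limma adjusted p = 0.000133). The DN-MCU and WT adult groups did not overlap, as for 8.7% of probe sets in this direction. The rise was the 8th largest among the 24176 probe sets tested, of which 4.77% passed in either direction in adults and 2.82% passed as higher. Passing means an adjusted p under 0.05.

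The WT level bears on how large the change can be said to be. A log2 signal of 3.35, the median of all values, served as the filter level for dim probe sets, and both WT groups averaged 1.86, below it. The size of the rise is therefore measured against signal near background and no fold is given. The DN-MCU adult mean lay 4.72 above the filter level. Within single arrays the Fgf21 signal lay at percentiles 78.9, 79.3 and 84.5 of all probe sets in DN-MCU adults, against 1.99, 3.35 and 1.94 in WT adults. These are ranks of probe brightness and not of transcript abundance. A probe set was tested if at least 3 of the 12 arrays exceeded the filter level, and Fgf21 met this through the 3 DN-MCU adults and 1 neonate, so its passing the filter is not independent of the difference.

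The adult call did not rest on the filter or on the spread shared with the neonates. With no filter the difference was 6.21 (adjusted p = 0.000967), and with the 6 adult arrays fitted alone it was 6.21 (SE 0.24, adjusted p = 0.00141). Without DN-MCU adult 3, the highest of the 12 arrays, it was 5.96 (adjusted p = 0.000467). An exact two-sided permutation test over the arrays gave p = 0.1, the smallest that 3 against 3 allows.

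**Figure D1:**
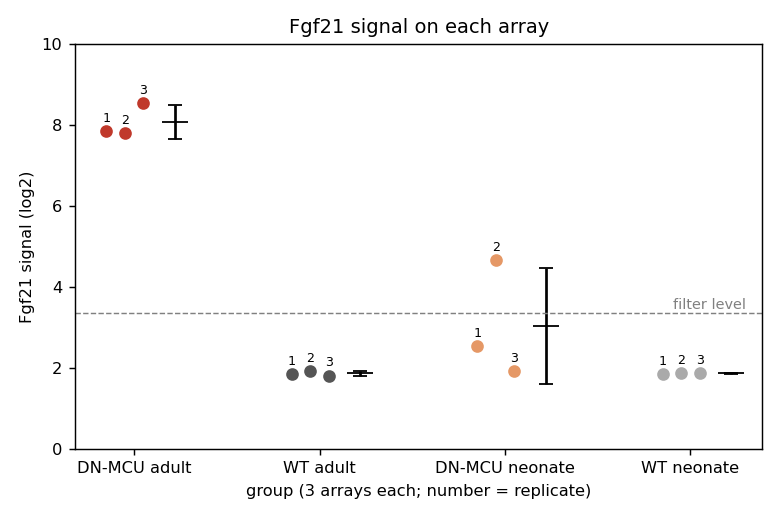
Fgf21 log2 signal (vertical axis) on each of the 12 arrays by group, with replicate numbers, and mean ± SD beside the points; the dashed line marks the filter level of 3.35. The 3 DN-MCU adults lie between 7.81 and 8.55, DN-MCU neonate 2 lies at 4.66, and the 6 WT arrays lie between 1.81 and 1.93.

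In neonates Fgf21 read 2.54, 4.66 and 1.92 in DN-MCU hearts, against 1.84, 1.87 and 1.87 in WT hearts. DN-MCU neonate 2 was the 1 neonatal array above the filter level, and DN-MCU neonate 3 lay only just above the WT arrays. The groups did not overlap, which held for 7.51% of all probe sets in this direction. The means were 3.04 ± 1.44 in DN-MCU neonates and 1.86 ± 0.01 in WT neonates (SD, n = 3 each), with most of the spread among the DN-MCU arrays. The log2 difference of 1.18 (SE 0.54) did not pass (limma adjusted p = 1; unadjusted p = 0.0536), and its 95% interval was -0.02 to 2.38. Of all probe sets, 0.0165% passed in neonates, and 2.39% had an unadjusted p under 0.05. Without DN-MCU neonate 2 the difference was 0.37 (adjusted p = 1), and the exact permutation p was 0.1, again the smallest possible.

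The effect of DN-MCU on Fgf21 was larger in adults than in neonates by 5.03 on the log2 scale (SE 0.77, 95% interval 3.33 to 6.73, limma adjusted p = 0.0153), a test that 0.786% of probe sets passed. This call was near the threshold. The difference stayed between 4.47 and 5.84 when any 1 array was left out, but the adjusted p was 0.0571, 0.0541 or 0.0521 without WT neonate 1, 2 or 3 and 0.0583 without DN-MCU neonate 1. With the replicate numbers of both ages as a block it was 0.0828.

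Placed in order, the groups ran from DN-MCU adults through DN-MCU neonates to the WT groups. DN-MCU adults lay 5.03 above DN-MCU neonates (SE 0.54, limma adjusted p = 3.63e-05), where 46.0% of probe sets passed. DN-MCU neonates did not pass against WT neonates, as given above. WT adults and WT neonates had a difference of 0.00 (SE 0.54, 95% interval -1.20 to 1.20, adjusted p = 0.998), in a comparison that 45.1% of probe sets passed. With the 6 WT arrays fitted alone the SE of this difference was 0.10.

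Several transcription factors known to act on Fgf21 or Gdf15 rose with it in adult hearts. The members of this list and of the other pathway lists were counted once per gene, by the brightest probe set, and 5.11% of all 11807 genes passed in adults (3.42% higher, 1.69% lower). Of 13 measured factors, 3 rose, 1 fell and 9 did not pass, with a median difference of 0.35 against 0.00 over all genes. Atf4 read 11.91, 11.70 and 11.42 in DN-MCU adults, against 9.81, 10.03 and 9.94 in WT adults, with no overlap. It rose by 1.75 (SE 0.23, limma adjusted p = 0.00205). Ddit3, which encodes the stress-induced factor CHOP, was at 10.82, 10.61 and 10.46 in DN-MCU adults, against 8.10, 8.58 and 8.97 in WT adults, a rise of 2.08 (SE 0.31, adjusted p = 0.00327). Atf3, another stress-induced factor, rose by 1.62 (SE 0.41, adjusted p = 0.0494), a call lost with the neonatal replicate numbers as a block (adjusted p = 0.106), with the adults fitted alone (0.108) and without WT adult 1 and DN-MCU adult 3 (0.0907). It was also lost when any of 10 of the 12 arrays was left out (adjusted p 0.0627 to 0.178).

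The 1 factor that fell was Mlxipl, the carbohydrate-responsive factor ChREBP, at 6.68 ± 0.66 in DN-MCU adults, against 8.10 ± 0.47 in WT adults (SD, n = 3 each; difference -1.43, SE 0.34, limma adjusted p = 0.0363). This call was lost with the neonatal block (adjusted p = 0.0773), with the adults alone (0.282) and when any of 9 of the 12 arrays was left out (0.0561 to 0.144). Among those that did not pass, Egr1, an immediate early factor, differed by 1.89 (SE 0.50, adjusted p = 0.0612), with no overlap between the adult groups, and Pparg, a factor of fat cells, by 0.47 (SE 0.18, adjusted p = 0.201). Ppara, whose product PPARα drives Fgf21 in the fasting liver, read 8.92, 9.22 and 9.34 in DN-MCU adults, against 9.78, 9.52 and 9.62 in WT adults. The difference of -0.48 (SE 0.14) did not pass (adjusted p = 0.0869).

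In neonates none of the 13 factors passed in limma. Ddit3 read 8.52, 9.42 and 8.18 in DN-MCU hearts, against 7.40, 7.35 and 7.17 in WT hearts (difference 1.40, SE 0.31, adjusted p = 0.553). Atf4 read 10.32, 11.10 and 10.12 in DN-MCU hearts, against 9.84, 9.83 and 9.78 in WT hearts (difference 0.69, SE 0.23, adjusted p = 1). For both genes every DN-MCU neonate lay above every WT neonate, and DN-MCU neonate 2 was the highest array, as it was for Fgf21.

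The regulators of the integrated stress response, the pathway that slows general translation while favouring ATF4, rose in part. Of 12 measured members, 4 rose in adults, none fell and 8 did not pass, with a median of 0.12. Trib3, a pseudokinase induced by ATF4 and CHOP, read 11.30, 10.84 and 12.07 in DN-MCU adults, against 5.45, 5.34 and 5.24 in WT adults (difference 6.06, SE 0.43, limma adjusted p = 3.08e-05). Chac1, which degrades glutathione, read 10.33, 10.49 and 11.03 in DN-MCU adults, against 6.92, 7.0 and 5.44 in WT adults (4.17, SE 0.53, adjusted p = 0.00171). On both genes all DN-MCU adults lay well above all WT adults.

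Sesn2, an inhibitor of mTORC1 signalling, rose by 1.20 (SE 0.17, adjusted p = 0.00282). Ppp1r15a, the GADD34 subunit that restores translation, rose by 1.00 (SE 0.12, adjusted p = 0.0012). With the adults fitted alone Sesn2 (adjusted p = 0.0849) and Ppp1r15a (0.0678) did not pass, whereas Trib3 and Chac1 did. The genes of the kinases that start the pathway, Eif2ak1 (HRI), Eif2ak2 (PKR), Eif2ak3 (PERK) and Eif2ak4 (GCN2), did not pass at either age, nor did Oma1 and Dele1, which relay mitochondrial stress to it.

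In neonates 1 of the 12 regulators rose and 11 did not pass, and 0.0254% of all genes passed. Chac1 read 7.37, 8.62 and 6.63 in DN-MCU neonates, against 2.87, 2.55 and 3.56 in WT neonates (4.55, SE 0.53, limma adjusted p = 0.04). Its WT mean of 2.99 lay below the filter level, and the call was lost with the neonatal block (adjusted p = 0.0791), with the neonates fitted alone (0.265), without WT adult 1 and DN-MCU adult 3 (0.101) and when any of 9 of the 12 arrays was left out (0.0684 to 0.209). Trib3 read 7.35, 8.80 and 6.90 in DN-MCU neonates, against 4.61, 4.62 and 4.63 in WT neonates, with no overlap (3.06, SE 0.43, adjusted p = 0.0757).

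The 3 DN-MCU neonates kept one order across Fgf21 and much of this group. DN-MCU neonate 2 was highest and DN-MCU neonate 3 lowest for Fgf21, Atf4, Ddit3, Trib3, Chac1, Sesn2 and Ppp1r15a, but not for Atf3, which was highest in DN-MCU neonate 3. Of the 12 regulators with Atf4, Atf3 and Ddit3, 9 of 15 were highest in DN-MCU neonate 2 among these 3 arrays, against 39.1% of all genes. On the Mcu probe set that separates the genotypes, DN-MCU neonate 2 was the lowest of the 3, at 8.44. These orders are descriptions of 3 arrays and were not tested.

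**Figure D2:**
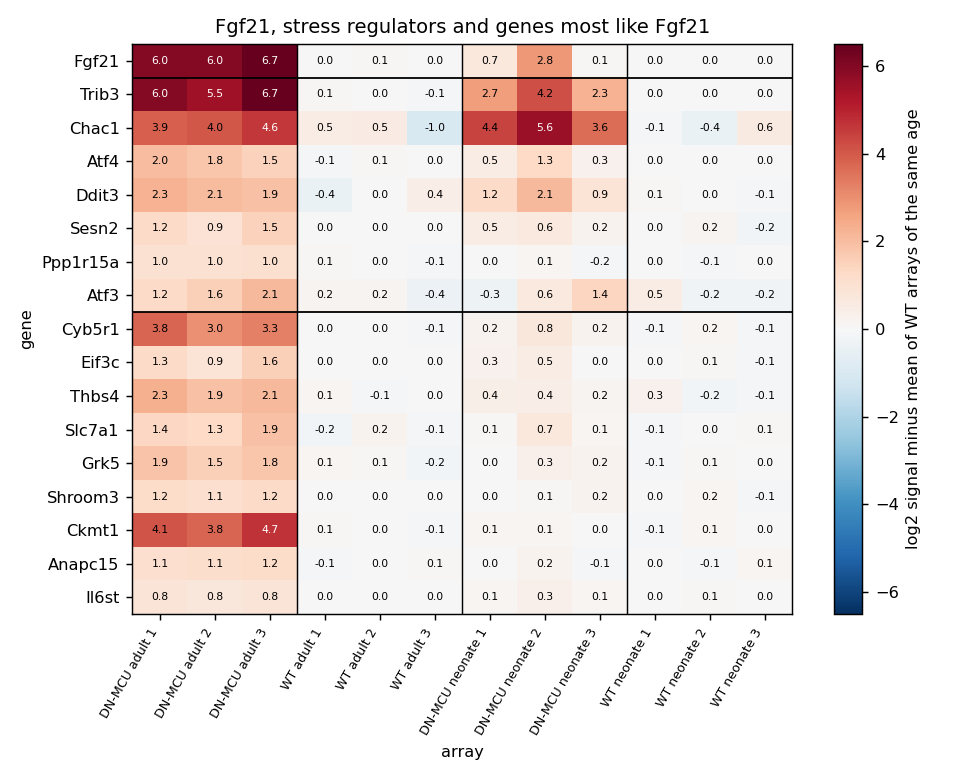
Log2 signal of each gene (rows) on each array (columns) minus the mean of the 3 WT arrays of the same age; red is higher and blue is lower, and the values are printed in the cells. Fgf21 is in the top row, stress regulators and stress factors are between the lines, and the genes most like Fgf21 are below; Fgf21 lies 5.95 to 6.69 above WT in DN-MCU adults and 0.06 to 2.80 above WT in DN-MCU neonates.

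The promoter of Fgf21 is shown because ATF4 and its partner factors act on this gene through amino acid response elements. The 250 bases before the annotated start lie at chr7:45615491-45615740 on the minus strand (GRCm38.p6, sequence from RefSeq), upstream of the gene at chr7:45613890-45615490. Capitals mark matches to 3 motifs searched on both strands of this window: TGATGNAA, the core of the amino acid response element, CACGTG, the E-box core, and TATAAA, the TATA box.
Fgf21: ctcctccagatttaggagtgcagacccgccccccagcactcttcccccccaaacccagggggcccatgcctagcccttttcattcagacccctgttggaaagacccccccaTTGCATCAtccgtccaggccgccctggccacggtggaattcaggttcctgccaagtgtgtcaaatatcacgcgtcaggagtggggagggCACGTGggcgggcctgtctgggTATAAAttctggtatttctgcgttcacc
There was 1 match to each motif, with no overlap between them. The TGATGNAA match lies on the opposite strand, 139 to 132 bases before the start, CACGTG 50 to 45 bases before it and TATAAA 28 to 23 bases before it. Windows of this length before gene starts held TGATGNAA in 3.45% of 32851 cases, CACGTG in 6.02% and TATAAA in 12.4%.

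Of the 12 stress regulators with Atf4, Atf3 and Ddit3, 13 of 15 had a promoter window, and 2 of the 13 held TGATGNAA, namely Chac1 and Atf3, against 3.91% of all genes with a window. The windows of Atf4, Ddit3, Trib3, Sesn2 and Ppp1r15a did not hold it, nor did those of any of the 10 genes most like Fgf21, which are given further on. The match and its surroundings are printed with that of Fgf21 so that they can be compared, each in the orientation in which the motif reads forward and with the motif in capitals.
Fgf21: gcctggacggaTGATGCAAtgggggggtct
Chac1: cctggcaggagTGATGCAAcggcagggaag
Atf3: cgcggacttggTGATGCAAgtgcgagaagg
These lie at chr7:45615611-45615640 (plus strand), chr2:119351038-119351067 (minus strand) and chr1:191183425-191183454 (plus strand) of GRCm38.p6. All 3 carry a C at the open position of the motif. The matches are matches of letters, and binding was not measured.

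On the receiving side, 4 of the 7 listed genes of FGF receptors and co-receptors met the filter, and none of the 4 passed at either age in limma. Klb, which encodes β-klotho, was below the filter level on every array, at 2.16, 2.18 and 2.12 in DN-MCU adults, against 2.13, 2.15 and 2.14 in WT adults. In neonates it read 2.09, 2.10 and 2.11 in DN-MCU hearts, against 2.15, 2.13 and 2.15 in WT hearts. Kl and Fgfr4 also did not reach the filter on 3 arrays. Fgfr1 read 7.40, 7.41 and 7.90 in DN-MCU adults, against 8.04, 7.37 and 7.65 in WT adults. The groups overlapped, and the difference of -0.12 (SE 0.25) did not pass (limma adjusted p = 0.868). Fgfr3 (0.20, SE 0.17), Fgfr2 (0.09, SE 0.12) and Fgfrl1, a family member without a kinase domain (0.13, SE 0.28), did not pass either, nor did any of these 4 in neonates, where the differences were between -0.12 and 0.16. The group means of Fgfr2 were 3.23 to 3.46, close to the filter level of 3.35, so little can be read from its small differences.

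Of 12 measured genes that FGF receptor signalling is known to induce, 2 rose in adults, none fell and 10 did not pass, with a median of 0.12. Etv5, a transcription factor of the ETS family, read 10.59, 9.88 and 10.98 in DN-MCU adults, against 8.89, 8.05 and 8.30 in WT adults, with no overlap (2.07, SE 0.31, limma adjusted p = 0.00339). Dusp5, a phosphatase that acts on ERK, rose by 0.72 (SE 0.16, adjusted p = 0.0292), a call lost with the neonatal block (adjusted p = 0.083) and when any of 6 of the 12 arrays was left out (0.0513 to 0.122). With the adults fitted alone Etv5 (adjusted p = 0.0989) and Dusp5 (0.294) did not pass. Dusp6, Spry2 and Spry4, feedback inhibitors of the same pathway, lay at -0.01, -0.31 and 0.00 and did not pass. Others that did not pass lay higher, with differences of 1.89 for Egr1, given above, 1.81 for Fos, an immediate early factor (SE 0.75, adjusted p = 0.228), and 0.84 for Dusp4, another phosphatase of the ERK pathway (SE 0.31, adjusted p = 0.183). The adult groups overlapped for Fos and Dusp4. The other 4 lay between -0.14 and 0.13. None of the 12 passed in neonates in limma.

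**Figure D3:**
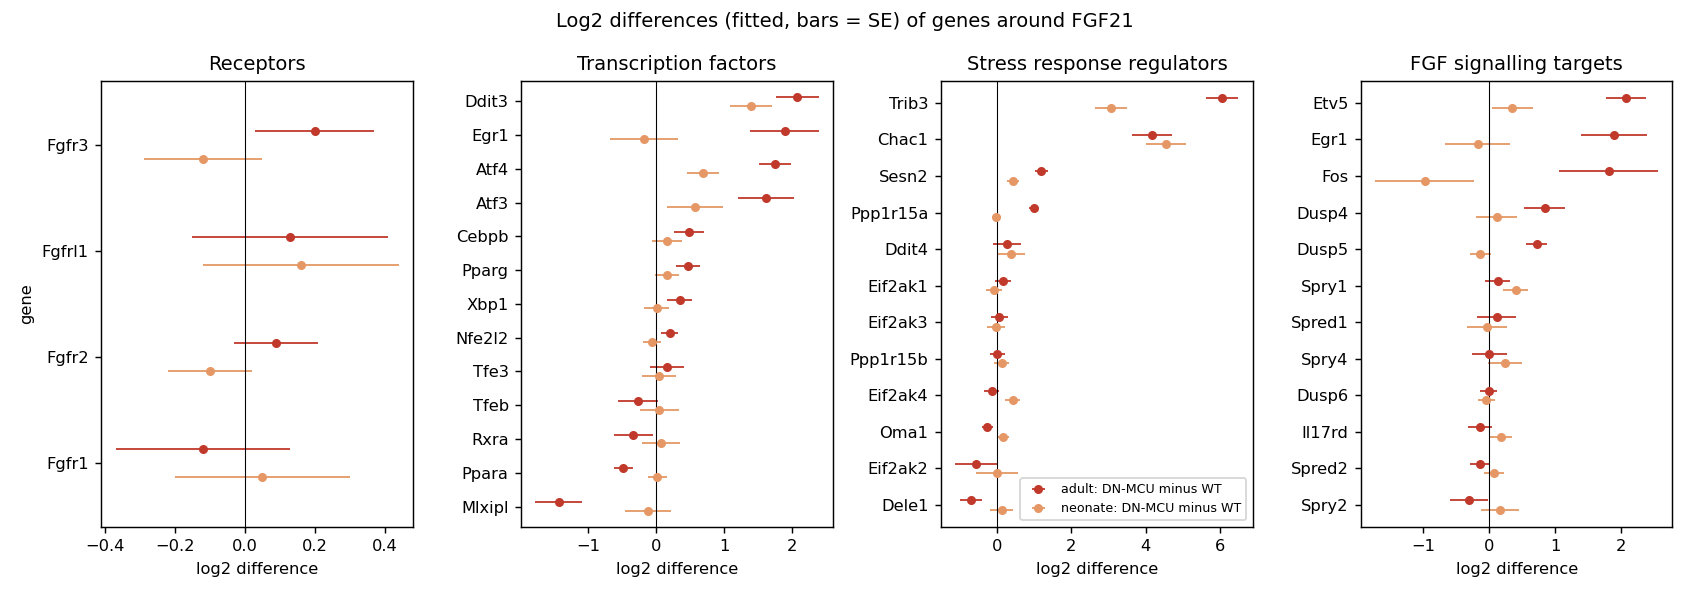
Fitted log2 differences, DN-MCU minus WT, in adults (dark) and neonates (light) with bars for the SE, for measured FGF receptors, transcription factors known to act on Fgf21 or Gdf15, integrated stress response regulators and genes induced by FGF receptor signalling. Trib3 (6.06) and Chac1 (4.17) lie farthest to the right in adults, and the 4 receptors lie between -0.12 and 0.20; the horizontal scales differ between panels.

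Among the other ligands of the FGF family, 5 of 17 were measured above the filter, namely Fgf1, Fgf7, Fgf9, Fgf16 and Fgf18, and none passed at either age. Their adult differences ran from -1.41 for Fgf18 (SE 0.57, limma adjusted p = 0.214) to 0.52 for Fgf7. The other endocrine FGFs were near background in all 4 groups. Fgf15, made in the intestine, lay between 1.92 and 1.94 in DN-MCU adults and between 1.91 and 1.93 in WT adults, and Fgf23, made in bone, between 2.32 and 2.40 in DN-MCU adults and between 2.37 and 2.46 in WT adults. In the neonatal groups these probe sets also stayed below the filter level.

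GDF15 signals through GFRAL and RET, and of the 6 genes of this receptor family fixed in the list, 4 were measured. Gfral was not among the annotated probe sets. Ret read 4.15, 4.32 and 6.03 in DN-MCU adults, against 5.96, 6.25 and 6.19 in WT adults. DN-MCU adult 3 lay among the WT arrays while the other DN-MCU adults lay below them, and the difference of -1.30 (SE 0.43) did not pass (limma adjusted p = 0.126). Gfra1, a co-receptor for GDNF, fell to 2.65, 2.95 and 2.97 in DN-MCU adults, against 3.89, 4.44 and 4.15 in WT adults (-1.30, SE 0.17, adjusted p = 0.00172). Its DN-MCU level was below the filter level, and with the adults fitted alone the adjusted p was 0.0848. Gfra2 (-0.65) and Gfra3 (-0.36) did not pass, and no member passed in neonates in limma.

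Of the other ligands of the TGF-β family, to which GDF15 belongs, 1 of 14 measured rose in adults and 13 did not pass, with a median of -0.06. Tgfb2 read 10.64, 10.27 and 9.93 in DN-MCU adults, against 8.26, 8.13 and 8.22 in WT adults, with no overlap (2.08, SE 0.18, limma adjusted p = 0.000122). In neonates it read 9.42, 9.58 and 9.79 in DN-MCU hearts, against 9.61, 9.66 and 9.75 in WT hearts, where the groups overlapped (-0.08, SE 0.18, adjusted p = 1). Its adult effect differed from its neonatal effect (2.16, SE 0.25, adjusted p = 0.00361), a test that 0.949% of genes passed. This call was lost with the replicate numbers of both ages as a block (adjusted p = 0.052).

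Among 20 other secreted factors of heart and muscle, 3 rose in adults, none fell and 17 did not pass, with a median of -0.02. Ccn2, a matricellular protein of fibrosis, rose by 1.53 (SE 0.31, limma adjusted p = 0.0197), and Nppb, brain natriuretic peptide, by 1.27 (SE 0.30, adjusted p = 0.0403). Fstl3, which binds activins and myostatin, rose by 1.07 (SE 0.24, adjusted p = 0.0322; 0.0552 with the neonatal block). None of these 3 passed with the adults fitted alone (adjusted p = 0.0702, 0.0849 and 0.141 for Ccn2, Nppb and Fstl3), and Nppb did not pass without WT adult 1 and DN-MCU adult 3 (0.104). Leaving out 1 array ended the call of Nppb for 8 of the 12 arrays (adjusted p 0.0646 to 0.140), that of Fstl3 for 6 (0.0513 to 0.128) and that of Ccn2 for WT adult 3 (0.0838). None of the 8 genes for proteases that act on FGF21 or GDF15 passed; Fap, which cleaves and inactivates FGF21 in humans, differed by -0.83 (SE 0.31, adjusted p = 0.174), and the smallest p was that of Pcsk5, a proprotein convertase (0.52, SE 0.17, adjusted p = 0.127). No member of either list passed in neonates in limma.

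FGF21 is also made in liver, pancreas and fat, and markers of these tissues were read on the same arrays. Of 7 hepatocyte markers with a probe set, Alb, Apoa1, Fgb, Tat and Cps1 were below the filter level on every array, with Alb at 2.28 to 2.37 in DN-MCU adults and 2.28 to 2.39 in WT adults. Ttr, transthyretin, rose in adults, at 5.88, 7.26 and 7.95 in DN-MCU hearts, against 3.81, 3.65 and 4.09 in WT hearts (3.18, SE 0.46, limma adjusted p = 0.00314; 0.0896 with the adults alone). Ahsg, the other hepatocyte marker tested, did not pass in adults (0.42, SE 0.30, adjusted p = 0.528). It lay between 5.35 and 6.15 in DN-MCU adults and between 5.01 and 5.84 in WT adults. The summed hepatocyte signal was 7.25 to 8.33 in DN-MCU adults and 6.08 to 6.56 in WT adults, a difference carried mostly by Ttr. In neonates the sum was 6.08 to 6.65 in DN-MCU hearts and 6.28 to 6.77 in WT hearts.

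Of 5 pancreatic acinar markers, Ctrb1 and Cel were below the filter level on every array. Cela1, an elastase, rose to 6.70, 5.81 and 6.19 in DN-MCU adults, against 3.34, 2.86 and 2.84 in WT adults (3.22, SE 0.28, adjusted p = 0.000125), and the summed acinar signal was 6.27 to 6.96 in DN-MCU adults and 4.76 to 5.15 in WT adults. All 3 WT adult values of Cela1 were below the filter level. Cpa1, a carboxypeptidase and the other acinar marker tested, did not pass (-0.22, SE 0.23, adjusted p = 0.674) and lay below the filter level in all adults, so the adult difference in the sum is carried by Cela1. In neonates Cpa1 averaged 5.67 in DN-MCU hearts and 5.56 in WT hearts, and the summed signal was 6.12 to 6.32 in DN-MCU hearts and 6.10 to 6.21 in WT hearts.

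Fat markers varied among the adults of both genotypes. Ucp1, the uncoupling protein of brown fat, read 9.86, 10.72 and 2.36 in DN-MCU adults, against 9.89, 7.11 and 7.77 in WT adults, and Adipoq, adiponectin, read 10.52, 11.57 and 8.64 in DN-MCU adults, against 11.39, 9.96 and 10.55 in WT adults. DN-MCU adult 3 had the lowest Ucp1 and Adipoq and the highest Fgf21 of the 6 adults. The summed signal of 5 white adipocyte markers was 8.79 to 11.84 in DN-MCU adults and 10.09 to 11.60 in WT adults, and 4.71 to 4.73 in DN-MCU neonates and 4.68 to 4.74 in WT neonates, with Lep below the filter level on every array. That of 6 brown adipocyte markers was 15.20 to 15.53 in DN-MCU adults and 15.74 to 15.77 in WT adults, and 14.54 to 14.79 in DN-MCU neonates and 14.50 to 14.62 in WT neonates. This sum is carried by Cox7a1 and Cox8b, which heart muscle expresses as well. Of 8 skeletal muscle markers, Mybpc2, a myosin-binding protein, fell in DN-MCU adults (-2.52, SE 0.50, limma adjusted p = 0.0168). This call was lost with the adults alone (0.234), with the neonatal block (0.0574) and without DN-MCU adult 1 (0.0507). Tnni2, the other skeletal muscle marker tested, did not pass (0.16, SE 0.15, adjusted p = 0.635). Myh1, Myh2, Myh4, Actn3, Pvalb and Tnnt3 did not meet the filter. The part of the Ttr, Cela1, Mybpc2 and thymocyte signals in the Fgf21 result was not tested.

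**Figure D4:**
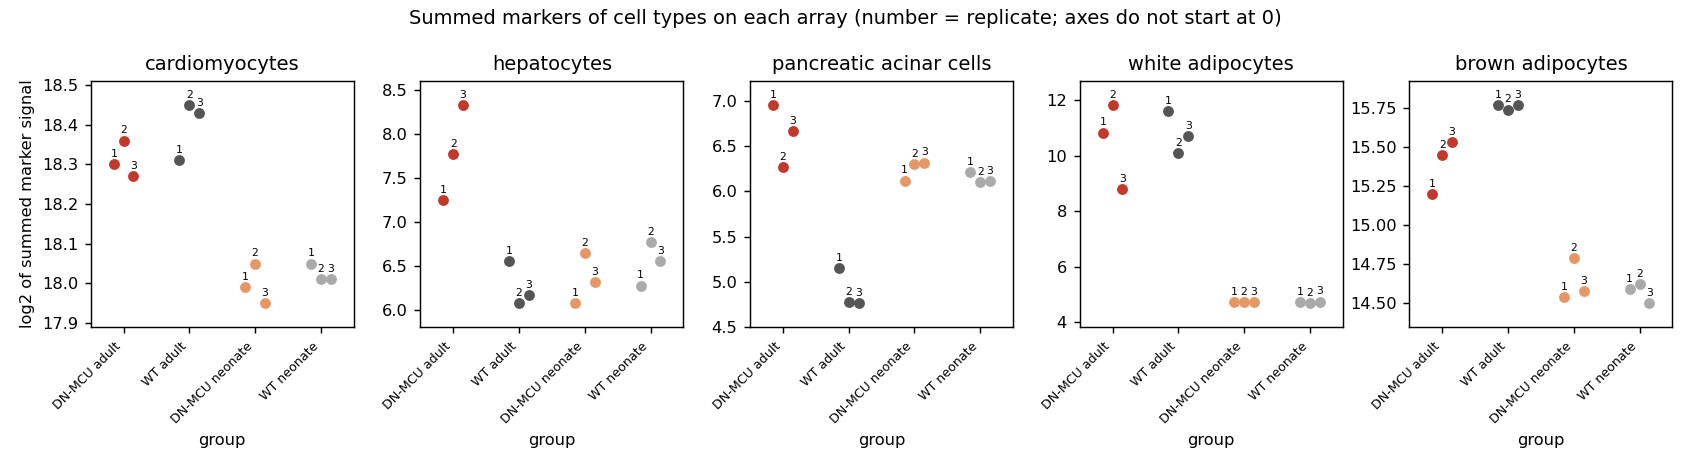
Log2 of the summed signal of the markers of 5 cell types (vertical axes, which differ and do not start at 0) on each of the 12 arrays by group, with replicate numbers. The summed hepatocyte and acinar signals of the 3 DN-MCU adults lie above those of the 3 WT adults, carried mostly by Ttr and by Cela1. White adipocyte signals overlap and are lowest among adults in DN-MCU adult 3, at 8.79.

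The genes whose signal followed that of Fgf21 most closely were sought among 11806 other genes by Pearson correlation over the 12 arrays. The 5 closest were Cyb5r1 (r = 0.978), of the cytochrome b5 reductase family, Eif3c (0.975), a subunit of a translation initiation factor, Thbs4 (0.970), a matricellular thrombospondin, Slc7a1 (0.970), a transporter of cationic amino acids, and Grk5 (0.969), a kinase of G protein-coupled receptors. All shared the step between DN-MCU adults and the other arrays, which sets most of r. Cyb5r1 read 12.18, 11.36 and 11.71 in DN-MCU adults, against 8.44, 8.46 and 8.32 in WT adults, and 8.80, 9.33 and 8.80 in DN-MCU neonates, against 8.48, 8.72 and 8.51 in WT neonates. The adult differences of the other 4 were 1.24 for Eif3c, 2.11 for Thbs4, 1.53 for Slc7a1 and 1.73 for Grk5, all far smaller than that of Fgf21. Sesn2, Trib3, Ppp1r15a and Atf4 stood at ranks 9, 10, 12 and 13 of all genes, each with r = 0.964, Ddit3 at rank 54 (0.910) and Chac1 at rank 152 (0.847).

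Over the 6 adult arrays alone the 5 closest genes were other ones. Trib3 was first (r = 0.999), followed by Shroom3 (0.998), a regulator of the actin cytoskeleton, Ckmt1 (0.998), the ubiquitous mitochondrial creatine kinase, Anapc15 (0.997), a subunit of the anaphase-promoting complex, and Il6st (0.997), the shared receptor subunit of the interleukin-6 family. Trib3, Shroom3 and Ckmt1 had the same order as Fgf21 among the DN-MCU adults, highest in DN-MCU adult 3 and lowest in DN-MCU adult 2. Il6st was also lowest in DN-MCU adult 2, with DN-MCU adults 1 and 3 both at 11.95, while Anapc15 was lowest in DN-MCU adult 1. Fgf21 itself differed little between DN-MCU adults 1 and 2 (7.84 and 7.81), and these orders were not tested. Ckmt1 read 7.05, 6.79 and 7.71 in DN-MCU adults, against 3.07, 3.00 and 2.90 in WT adults (4.20, SE 0.21, limma adjusted p = 3.32e-06). Its neonatal groups were both near background, at 3.01, 3.01 and 2.87 in DN-MCU hearts, against 2.77, 3.03 and 2.89 in WT hearts. The adult differences of Shroom3, Anapc15 and Il6st were 1.16, 1.13 and 0.82. These genes were picked for their likeness to Fgf21, so their differences in adults follow from the choice.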

How the data were processed

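The log2 signals come from 1 table deposited by the authors, already on a common scale (array medians 3.24 to 3.46); the log2 unit was inferred from the values. How it was normalized is not stated by the labels. Per the submitters' processing notes Partek was used, without a version. Of 45101 probe sets, 64 controls were removed; 34945 of the rest had 1 gene in the platform annotation, 932 several and 9160 none. Gene IDs of 34741 matched the RefSeq gene table, which changed 0 symbols. Of 138 pathway genes in 9 lists, 91 were measured above the filter.

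Probe sets with at least 3 values above log2 3.35 (the overall median) were kept, 24176 in number. A model of the 4 group means was fitted to the 12 arrays by limma 3.58.1 (R 4.3.3), and p-values were adjusted by Benjamini-Hochberg over all probe sets of a comparison. Values after ± are SD, and SEs come from the fit. The members and lists were chosen with earlier results of these data known.

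Named were Fgf21, Mcu, the receptors, up to 4 genes per list and age that passed (or the 1 with the smallest p in adults), and the 5 genes most like Fgf21 over 12 and over 6 arrays. Other list members and markers are named to describe their list and were chosen after their values were seen.

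Same-numbered neonatal arrays deviated together (correlations 0.133, 0.223 and 0.283), against -0.292 to 0.0902 for neonatal arrays of different numbers. Same-numbered adults did not do so throughout (-0.381, 0.41 and -0.428). No label explains the numbers, so the main fit pairs no arrays, and its p-values ignore any pairing of the neonates. Replicate blocks were run as alternatives. P-values measure the spread between hearts labelled as biological replicates, and 3 arrays per group limit the precision. The model was checked on simulated arrays with 200 probe sets changed. Where all groups shared 1 spread, false calls were near the nominal rate. With each group's own spread most calls of the 12-array fit in adults were false, and fewer but still more than nominal with the adults alone. These spreads were SDs of 3 arrays taken as true, so the share of false calls holds for these settings and not for the data. The adjusted p-values and the total of adult calls can therefore be too favourable where groups differ in spread. For genes of the pathway and marker lists, the text gives the adults-alone p where it ends a call. Among the genes most like Fgf21, the adults-alone fit ended the adult calls of Eif3c (limma adjusted p = 0.091), Slc7a1 (0.0737) and Il6st (0.101). For the adult difference of Fgf21 the SE was larger in the 12-array fit (0.54) than with the adults alone (0.24), while the limma adjusted p was smaller (0.000133 against 0.00141).

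Alternatives were quantile normalization, subtracting array medians, no filter, a stricter filter (log2 7.25), fitting only the groups compared, array weights, a trended prior, replicate blocks and leaving out arrays; leaving out WT adult 1 and DN-MCU adult 3 together was added after seeing the data.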

Additional observations from a re-analysis of the deposited data

Results flagged for a closer look

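The effect of DN-MCU differed between adults and neonates, by limma's test of the difference of the 2 effects (adult effect minus neonatal effect, log2), for Fgf21 (5.03, SE 0.77, adjusted p = 0.0153) and 11 other genes named above. Among genes of the pathway lists these were Ppp1r15a (1.00, SE 0.17, adjusted p = 0.0288) and 2 relatives of pathway members. The relatives were Tgfb2, another ligand of the TGF-β family (2.16, SE 0.25, adjusted p = 0.00361), and Gfra1, the co-receptor for GDNF (-1.24, SE 0.24, adjusted p = 0.0443). Among markers they were Ttr (3.46, SE 0.65, adjusted p = 0.0419) and Cela1 (3.00, SE 0.39, adjusted p = 0.00776). Among genes picked for their likeness to Fgf21, which favours this difference, they were Ckmt1 (4.13), Cyb5r1 (2.93), Thbs4 (1.78), Grk5 (1.55), Shroom3 (1.07) and Anapc15 (1.07), with adjusted p values between 0.000146 and 0.0257. With the neonatal replicate numbers as a block the differences of Ppp1r15a (adjusted p = 0.113), Gfra1 (0.129), Ttr (0.101), Shroom3 (0.0797) and Anapc15 (0.111) did not pass, and that of Fgf21 did (0.0235). With the replicate numbers of both ages as a block Fgf21 (adjusted p = 0.0828), Tgfb2 (0.052), Thbs4 (0.0705) and Grk5 (0.0852) were lost as well. Leaving out 1 array ended the call for 7 of the 12 arrays for Shroom3 and Anapc15, 8 for Ppp1r15a, 9 for Gfra1 and 10 for Ttr, with adjusted p values up to 0.137. For Fgf21 the call ended without WT neonate 1, 2 or 3 or without DN-MCU neonate 1 (adjusted p 0.0521 to 0.0583).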

How the results depend on the processing

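The adult difference of Fgf21 and its difference between DN-MCU adults and DN-MCU neonates kept their direction and their call under all alternatives run. Leaving out 1 array gave 5.96 to 6.34 for DN-MCU adults minus WT adults, 0.37 to 1.74 for DN-MCU neonates minus WT neonates (never passing), 4.47 to 5.84 for the difference of these effects and 4.47 to 5.84 for DN-MCU adults minus DN-MCU neonates. The difference of effects lost its call with the replicate block of both ages (5.03, adjusted p = 0.0828) and without the single neonatal arrays named in the report. The WT age difference of 0.00 took the other sign with quantile normalization (-0.01) and with array medians subtracted (-0.13). It was 0.14 (SE 0.71) with the replicate block of both ages and 0.26 (SE 0.55) with the neonatal block. Without single arrays it ran from -0.03 to 0.03, and it never passed. The neonatal replicate block changed no call of Fgf21.

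Counts of calls moved more, and the cause was not tested. For adults, 1152 probe sets passed; the count was 112 with the adults alone, 2036 with array weights, 568 with the replicate block of both ages, 636 with the neonatal replicate block, 3140 without WT adult 1 and DN-MCU adult 3, and 619 (without WT adult 3) to 2214 (without DN-MCU adult 3) without single arrays. For neonates 4 passed (578 at an unadjusted p under 0.05); the count was 2 with quantile normalization and with the stricter filter, 1 with medians subtracted, with the neonates alone and without WT adult 1 and DN-MCU adult 3, 95 with array weights, 0 with either replicate block in limma, and 0 (without DN-MCU neonate 1 or WT neonate 2) to 12 (without DN-MCU neonate 3) without single arrays. For the difference of effects 190 passed, against 1216 with array weights, 39 and 71 with the replicate block of both ages and of neonates, 1112 without the 2 adult arrays, and 70 to 636 without single arrays. Between ages, 10899 (WT) and 11128 (DN-MCU) passed, against 6650 and 6808 with the stricter filter, which tests fewer probe sets, 5038 and 4976 with the replicate block of both ages, 7190 and 7060 with the neonatal block, and 8826 to 13718 (WT) and 8828 to 12464 (DN-MCU) without single arrays.

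Of 91 pathway genes, 15 passed in adults, against 5 with the adults alone (Atf4, Ddit3, Trib3, Chac1 and Tgfb2), 24 with array weights, 29 without the 2 adult arrays, and 9 (without WT adult 3) to 24 (without DN-MCU adult 3) without single arrays. In neonates 1 passed, against 3 with array weights, 0 with either normalization, no filter, the neonates alone, either replicate block or without the 2 adult arrays, and 0 to 2 without single arrays.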

Other observations

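Fgf21 has the stress regulator Ppp1r15a near it on chromosome 7: among the 5 protein-coding genes on each side in the RefSeq order, Ppp1r15a is the fourth on one side, at chr7:45522917-45526268 (GRCm38.p6). It was the only one of the 6 measured neighbours that passed in adults (1.00, SE 0.12, limma adjusted p = 0.0012). Bcat2, next to Fgf21 on that side and an enzyme of branched-chain amino acid breakdown, averaged 5.15 in DN-MCU adults and 5.0 in WT adults (0.15, SE 0.31, adjusted p = 0.862). Nucb1 (0.13), Plekha4 (0.01), Rasip1 (-0.53) and Mamstr (-0.16) did not pass either, and none passed in neonates in limma. Hsd17b14, Fut1, Izumo1 and Fut2 were below the filter. The neighbours were looked up after the data were seen.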
